A study of Mus musculus with 9 samples.

Results

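The transcripts described here are those of 9 genes that make, break down and carry glutamine and glutamate: Gls2, Glul, Glud1, Got1, Got2, Slc38a1, Slc38a2, Slc38a3 and Slc1a1. They were taken by symbol from a list of enzymes and transporters of this pathway, and all 9 were among the 26602 genes with a count in midbrain tissue. All 9 also passed the filter on low counts, as did 18127 genes in total. Midbrain containing the SNpc, the dopamine cell region of the substantia nigra, was taken from 4 DJ-1+/+ and 5 DJ-1-/- mice. No treatment is recorded.

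The DJ-1+/+ mice (WT in the sample labels) carried normal alleles of Park7, the gene that encodes DJ-1, and the DJ-1-/- mice (DJ-1 KO) were homozygous for a targeted allele. Heterozygous parents were mated to obtain animals of either genotype, and the line had been backcrossed to C57BL/6. The mice were 3 to 4 months old. The allele is constitutive, so DJ-1 was missing from all cells and throughout development, and the sex of each mouse is not given in the sources used here. Each library came from 1 mouse.

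Glutamate is the main excitatory transmitter of the brain, and neurons cannot make enough of it from glucose on their own. Glutamate released at synapses is taken up largely by astrocytes, which turn it into glutamine with glutamine synthetase and hand the glutamine back through transporters of the Slc38 family, where neurons turn it into glutamate again with glutaminase. Glutamate dehydrogenase and the aspartate aminotransferases connect glutamate with the tricarboxylic acid cycle and with the malate-aspartate shuttle, which carries reducing equivalents into mitochondria. In dopamine neurons the glutamate transporter encoded by Slc1a1 also brings in cysteine for glutathione.

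Transcripts were counted near their polyadenylated ends with unique molecular identifiers. A count is thus meant to stand for 1 molecule and not to grow with transcript length. Whether this held for abundant genes was not tested. The DJ-1+/+ libraries held 841974 to 886085 counts each, and the DJ-1-/- libraries 967751 to 1098125. Every DJ-1-/- library was therefore deeper than every DJ-1+/+ library, and depth and genotype cannot be told apart by splitting the libraries. Levels are given as cpm, the count per 1000000 counts of the library, and 3 counts, the smallest level that can be shown, were 2.73 to 3.56 cpm (counting error only). Park7 averaged 135 ± 15.7 cpm in the DJ-1+/+ group (SD, n = 4) against 20.4 ± 4.54 cpm in the DJ-1-/- group (SD, n = 5), a log2 fold change of -2.71 (SE 0.15, Benjamini-Hochberg adjusted p = 7.44e-08 from the quasi-likelihood test of edgeR). Each list of 8 marker genes for midbrain dopaminergic neurons, neurons, astrocytes and oligodendrocytes was present in all 9 libraries, with no gene at or under 3 counts in any library. In bulk tissue, fewer cells of a type and less RNA per cell cannot be told apart.

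The genes lie on 7 chromosomes in GENCODE M21 (GRCm38). Gls2 is at chr10:128194457-128210004 on the plus strand, Glul at chr1:153899944-153909723 (plus), Glud1 at chr14:34310727-34345265 (plus), and Slc1a1 at chr19:28835049-28913960 (plus). On the minus strand, Got1 is at chr19:43499752-43524605, Got2 at chr8:95864134-95888547, Slc38a3 at chr9:107650634-107669530, and the neighbours Slc38a1 and Slc38a2 at chr15:96571418-96642913 and chr15:96687392-96699730. Counts are given per gene and not per isoform.

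Promoter sequences of 4 genes are printed, picked after the levels were seen. The levels of 3 of them, Glud1, Slc38a2 and Slc1a1, were at an extreme in the same library (DJ-1+/+ replicate 4, described later). That extreme was the lowest value for Glud1 and Slc38a2 and the highest for Slc1a1. Got1 was not at an extreme there and had a different set of motif letters. A link between motif letters and levels was not tested. The sequences are the 250 bases before the RefSeq start (GRCm38.p6), 5′ to 3′ on the strand of the gene, at chr14:34310477-34310726 (plus), chr15:96699729-96699978 (minus), chr19:28834885-28835134 (plus) and chr19:43524606-43524855 (minus). For Slc1a1 and Slc38a2 the window runs past the GENCODE start, at 28835049 and 96699730. The 3′ end of these windows thus lies within the gene as given above. The same holds for the Got2 window, which is not printed. Capitals mark every match, on either strand, to the CCAAT box (CCAAT), the GC box (GGGCGG), the TATA box (TATAAA), the cAMP response element (TGACGTCA) or the core of the amino acid response element (TGATGNAA, with N any base).

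Glud1 promoter: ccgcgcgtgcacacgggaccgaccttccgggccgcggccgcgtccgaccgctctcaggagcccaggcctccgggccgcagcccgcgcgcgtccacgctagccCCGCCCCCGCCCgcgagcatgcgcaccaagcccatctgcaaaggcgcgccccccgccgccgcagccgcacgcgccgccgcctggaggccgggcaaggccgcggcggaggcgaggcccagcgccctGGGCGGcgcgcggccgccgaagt

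Slc38a2 promoter: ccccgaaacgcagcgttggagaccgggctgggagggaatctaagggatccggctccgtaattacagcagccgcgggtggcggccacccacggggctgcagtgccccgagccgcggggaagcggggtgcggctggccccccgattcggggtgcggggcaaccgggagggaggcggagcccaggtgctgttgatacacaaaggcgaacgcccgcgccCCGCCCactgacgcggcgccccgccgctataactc

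Slc1a1 promoter: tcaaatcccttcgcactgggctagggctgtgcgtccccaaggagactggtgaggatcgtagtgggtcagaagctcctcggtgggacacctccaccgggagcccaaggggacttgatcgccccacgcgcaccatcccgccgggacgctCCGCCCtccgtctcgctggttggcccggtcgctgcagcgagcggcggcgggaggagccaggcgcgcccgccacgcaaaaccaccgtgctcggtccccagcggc

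Got1 promoter: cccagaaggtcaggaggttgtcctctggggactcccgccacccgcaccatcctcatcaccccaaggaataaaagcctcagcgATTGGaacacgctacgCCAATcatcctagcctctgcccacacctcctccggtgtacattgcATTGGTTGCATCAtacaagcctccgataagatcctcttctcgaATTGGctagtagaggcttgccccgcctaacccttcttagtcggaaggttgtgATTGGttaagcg

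Of these, Glud1, Slc38a2 and Slc1a1 had GC boxes and no other match, with 3, 1 and 1 respectively, whereas Got1 had 5 CCAAT matches and 1 match to TGATGNAA, which directly follows one of the CCAAT matches. Among 32851 mouse promoters of the same length, 33.85% held CCAAT, 32.74% GGGCGG, 12.37% TATAAA, 1.546% TGACGTCA and 3.452% TGATGNAA. The GC content was 82% for Glud1, 72% for Slc38a2, 70.4% for Slc1a1 and 54.4% for Got1, where the median of all promoters was 52.4%. Glud1 also had 46 CpG dinucleotides in this window, against a median of 6. Glul and Got2, the other 2 members with a RefSeq promoter entry, had 2 CCAAT boxes with 1 GC box and 1 TATA box respectively. Gls2, Slc38a1 and Slc38a3 were not in the promoter table. Glul, which also held a GC box, was not at an extreme in DJ-1+/+ replicate 4, and Gls2, which had no entry, was. A match to these letters is a description and does not show that a factor binds.

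The levels of the 9 genes fell into an upper group of 6 and a lower group of 3. Over the 9 mice, Glul was highest at 341 ± 14.0 cpm (SD, n = 9), followed by Got1 at 225 ± 17.0, Slc38a1 at 214 ± 13.2, Glud1 at 181 ± 13.9, Slc38a2 at 170 ± 18.3 and Got2 at 167 ± 13.1 cpm. Slc1a1 followed at 85.2 ± 12.7, Slc38a3 at 55.6 ± 9.07 and Gls2 at 42.5 ± 11.2 cpm. Glul exceeded Got1 in 9 of 9 libraries, by 1.52-fold on average, and Got2 exceeded Slc1a1 in 9 of 9, by 1.97-fold. Slc1a1 was above Slc38a3 in 9 of 9 libraries and Slc38a3 above Gls2 in 8 of 9. By contrast, Got1 was above Slc38a1 in 6 of 9 libraries (1.05-fold) and Slc38a2 above Got2 in 5 of 9 (1.01-fold), so these neighbours in the order did not differ beyond their spread. Slc38a1 was above Glud1, and Glud1 above Slc38a2, in 8 of 9 libraries each, by 1.19-fold and 1.07-fold.

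These levels placed Glul at rank 42 by mean count among all genes, and Got1 at rank 271, with Gls2 lowest at rank 8289. Counts of abundant genes were close together in these libraries: the gene at rank 1 had a mean of 1194 counts, that at rank 10 had 432, that at rank 100 had 268 and that at rank 1000 had 148. Whether the counts of abundant genes were compressed by the number of available identifiers was not tested, since the length of the identifiers is not given in the sources used here.

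No difference between the genotypes passed the test for any of the 9 genes. Before adjustment, edgeR's quasi-likelihood p was under 0.05 for 0 of the 9, and for 511 of the 18127 genes tested (2.82%). An adjusted p under 0.05 was likewise found for 0 of the 9, against 1 gene of all tested (0.00552%), which was Park7. The cpm of the genotypes overlapped for each of the 9 genes, whereas 226 genes of all tested (1.25%) had no overlap. In direction, 6 of the genes had a higher and 3 a lower estimate without DJ-1, against 9386 and 8741 of all genes tested. The median log2 fold change of the 9 was 0.07, against 0.01 over all genes tested. The adjusted p was 1 for each of the 9 in edgeR's test.

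**Figure D1:**
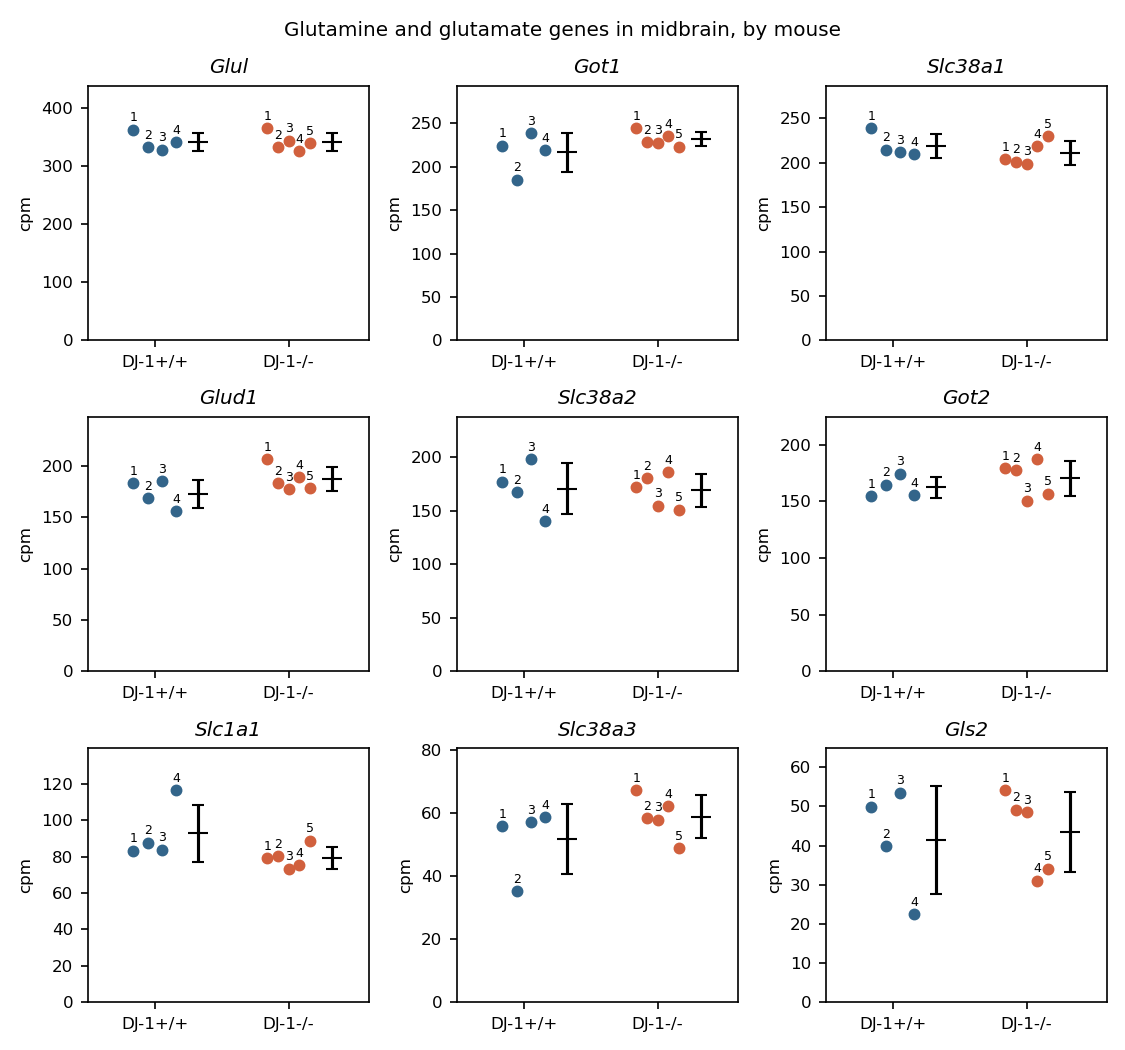
Level of each of the 9 genes in each mouse, in cpm, with axes starting at 0. Points are single libraries numbered by replicate (blue, DJ-1+/+, n = 4, and orange, DJ-1-/-, n = 5) and bars are the mean and SD. The points of the genotypes overlap in each panel, and the highest Slc1a1 (116 cpm), the lowest Slc38a3 (35.2 cpm) and the lowest Gls2 (22.6 cpm) are all in DJ-1+/+ mice.

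Of the enzymes that make and break down glutamine, neither differed between the genotypes beyond the spread between mice. Glul, glutamine synthetase and a marker of astrocytes, was at 362, 332, 328 and 341 cpm in DJ-1+/+ replicates 1 to 4 and at 364, 332, 344, 325 and 339 cpm in DJ-1-/- replicates 1 to 5. The ranges lay on top of each other, with replicate 1 highest in either genotype. Group means were 341 ± 15.3 cpm (SD, n = 4) and 341 ± 14.7 cpm (SD, n = 5). An exact permutation test gave p = 0.937. The log2 fold change from edgeR was 0.00 (SE 0.06), with a 95% interval from 0.912-fold to 1.10-fold. Glul was also the most even of the 9 genes: its coefficient of variation over the mice was 4.11%, where counting error alone gives 5.57%.

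Gls2, the liver-type glutaminase of mitochondria, was the lowest and the most uneven gene. In replicate order its counts were 42, 35, 46 and 20 with DJ-1 and 54, 54, 47, 30 and 35 without. As cpm these were 49.9, 39.8, 53.5 and 22.6, against 54.1, 49.2, 48.5, 31.0 and 34.1. Low and high mice occurred in either genotype, with DJ-1+/+ replicate 4 the lowest of all and DJ-1-/- replicates 4 and 5 next to it. The means were 41.4 ± 13.9 cpm (SD, n = 4) and 43.4 ± 10.2 cpm (SD, n = 5). The log2 fold change of 0.07 (SE 0.23, exact permutation p = 0.825) had a wide 95% interval, from 0.747-fold to 1.47-fold. Within genotypes the variance of its counts was 3.10 times that of counting error, and 12.7% of genes with a mean of 20 to 50 counts were above 3 times. A gene on the opposite strand, Spryd4, overlaps Gls2 by 97 bases and had 18 to 35 counts, and whether the counting used strand is not given in the sources used here.

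Glutamate dehydrogenase, encoded by Glud1, feeds the carbon of glutamate into the tricarboxylic acid cycle in mitochondria. Its cpm were 183, 168, 185 and 156 in DJ-1+/+ and 206, 183, 177, 189 and 178 in DJ-1-/- mice. DJ-1-/- replicate 1 was the highest mouse and DJ-1+/+ replicate 4 the lowest, while the others overlapped. The means of 173 ± 13.7 (SD, n = 4) and 187 ± 11.8 cpm (SD, n = 5) gave a log2 fold change of 0.11 (SE 0.08, exact permutation p = 0.175) with a 95% interval from 0.965-fold to 1.21-fold.

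The aspartate aminotransferases interconvert glutamate and aspartate, Got1 in the cytosol and Got2 in mitochondria. Got1 was at 224, 185, 238 and 219 cpm in DJ-1+/+ mice, and at 244, 229, 228, 236 and 223 cpm in DJ-1-/- mice. The DJ-1-/- mice lay close together, near the upper DJ-1+/+ values, and DJ-1+/+ replicate 2 was low. Got1 had a log2 fold change of 0.10 (SE 0.08, exact permutation p = 0.222). For Got2 the values were 154, 165, 175 and 156 cpm in DJ-1+/+ and 179, 178, 151, 187 and 157 cpm in DJ-1-/- mice. Both the lowest and the highest of the 9 mice were DJ-1-/-. Its log2 fold change was 0.07 (SE 0.08, exact permutation p = 0.413), and the 95% interval ran from 0.932-fold to 1.18-fold. Got2-ps1, a pseudogene named after Got2, had 0 counts in total.

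Among the glutamine transporters, Slc38a1 and Slc38a2 take up glutamine with sodium and are found in neurons among other cells. Slc38a1 was at 239, 215, 212 and 210 cpm in DJ-1+/+ and at 204, 201, 199, 219 and 230 cpm in DJ-1-/- mice. The 3 lowest mice were DJ-1-/-, but DJ-1-/- replicates 4 and 5 were above 3 of the 4 from DJ-1+/+. Its log2 fold change was -0.05 (SE 0.07, exact permutation p = 0.381). Slc38a2, which cells raise when amino acids are short, was at 177, 167, 198 and 140 cpm in DJ-1+/+ and at 172, 180, 155, 186 and 151 cpm in DJ-1-/- mice. The DJ-1+/+ values enclosed those of the DJ-1-/- mice. Means of 170 ± 24.0 (SD, n = 4) and 169 ± 15.4 cpm (SD, n = 5) gave a log2 fold change of -0.01 (SE 0.10, exact permutation p = 0.905). Within genotypes the variance of its counts was 2.08 times that of counting error, and 12.4% of genes with a mean of 100 to 200 counts were above 2 times.

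Slc38a3 encodes a transporter through which astrocytes release glutamine. It had 55.8, 35.2, 57.0 and 58.7 cpm in DJ-1+/+ and 67.1, 58.3, 57.8, 62.0 and 48.7 cpm in DJ-1-/- mice. Apart from DJ-1+/+ replicate 2, which had 31 counts, the DJ-1+/+ mice fell within the range of the DJ-1-/- mice. The log2 fold change of 0.18 (SE 0.16, exact permutation p = 0.286) was the highest of the 9, and without that mouse it was 0.03.

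Slc1a1 encodes EAAC1, the glutamate and cysteine transporter of neurons, and had the smallest p of the 9. It was at 83.1, 87.5, 83.8 and 116 cpm in DJ-1+/+ replicates 1 to 4 and at 79.1, 80.1, 73.2, 75.4 and 88.7 cpm in DJ-1-/- replicates 1 to 5. All DJ-1+/+ mice were above 4 of the 5 DJ-1-/- mice, and DJ-1-/- replicate 5 was above 3 of the 4 DJ-1+/+ mice. The means were 92.7 ± 15.8 (SD, n = 4) and 79.3 ± 5.92 cpm (SD, n = 5), a log2 fold change of -0.23 (SE 0.12, 95% interval from 0.720-fold to 1.02-fold). The exact two-sided permutation test of the cpm gave p = 0.0952, where the smallest p it allows is 0.0159, beside an unadjusted p of 0.0720 from edgeR. DJ-1+/+ replicate 4 decided its size: without that mouse the log2 fold change was -0.09. Without DJ-1+/+ replicate 1 or 3 or DJ-1-/- replicate 5, each left out alone, the log2 fold change was -0.27 and the unadjusted p from edgeR was under 0.05, while the adjusted p was not. A gene annotated on the opposite strand within the locus, 4430402I18Rik, had 3 to 12 counts.

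Exact two-sided permutation tests of the cpm gave p-values for the 9 genes from 0.0952 for Slc1a1 to 0.937 for Glul. Single mice also moved several of these small estimates. The log2 fold change of Glud1 was 0.065 without DJ-1+/+ replicate 4 and 0.072 without DJ-1-/- replicate 1, and that of Got1 was 0.022 without DJ-1+/+ replicate 2. For Got2 it was 0.023 without DJ-1-/- replicate 4 and 0.11 without DJ-1-/- replicate 3. Slc38a1 came to -0.0090 without DJ-1+/+ replicate 1 and to -0.094 without DJ-1-/- replicate 5. The 95% intervals from edgeR show how large a difference in counts these libraries could have left unseen. They would not show a difference in RNA lost by compression of abundant counts, which was not tested. For Glul, Glud1, Got1, Got2 and Slc38a1 the interval stayed within 0.865-fold and 1.21-fold, and for Slc38a2 within 0.862-fold and 1.14-fold. It was wider for the low genes Slc38a3 (0.898-fold to 1.44-fold) and Gls2.

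**Figure D2:**
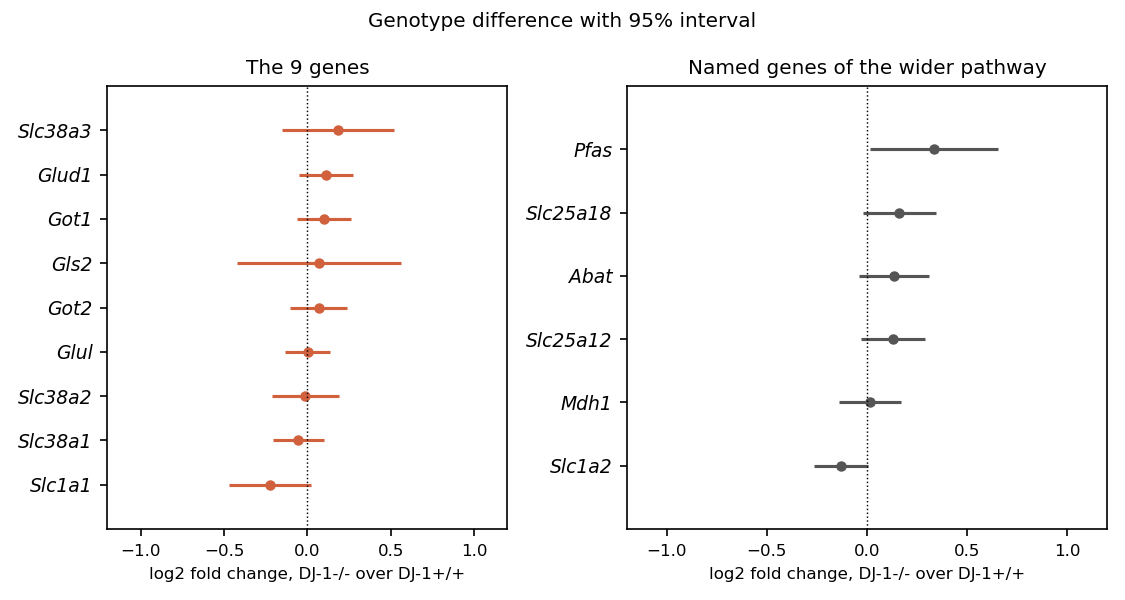
Log2 fold change of DJ-1-/- over DJ-1+/+ mice with its 95% interval from edgeR's quasi-likelihood fit, for the 9 genes (left, orange) and for the 6 genes of the wider pathway that the text names (right, grey). Points right of the dotted line are higher in DJ-1-/- mice. The intervals of all 9 genes include 0, and on the right only that of Pfas does not.

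Among single mice, DJ-1+/+ replicate 4 held the lowest value of the 9 mice for Gls2, Glud1 and Slc38a2 and the highest for Slc1a1. Its deviation from the mean log2 level of all mice was -0.86 for Gls2, -0.21 for Glud1, -0.27 for Slc38a2 and 0.46 for Slc1a1. DJ-1+/+ replicate 2 was lowest for Got1 and Slc38a3, by -0.28 and -0.64, and DJ-1-/- replicate 1 was highest for both. DJ-1-/- replicate 1 held the highest value for Gls2, Glul and Glud1 as well, while DJ-1-/- replicates 2 and 5 held no extreme for any of the genes.

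Marker lists of 8 genes each also had summed levels that differed between these mice. Choroid plexus genes summed to 981 cpm in DJ-1+/+ replicate 4, the highest, to 567 cpm in replicate 1 of that genotype, and to 268 to 413 in the other 7 libraries, and 4 of its genes (Kl, Folr1, Kcne2 and Aqp1) were at 0 in some libraries. Of its 8 genes 5 were past the unadjusted 0.05 threshold of edgeR, all of them lower without DJ-1. Of all genes tested 2.82% were past it, in either direction. The dopaminergic neuron list summed to 521 cpm in DJ-1+/+ replicate 4, the lowest of all, with 604 to 955 in the other DJ-1+/+ mice and 748 to 1009 in DJ-1-/- mice, and 2 of its 8 genes were past that threshold, both higher without DJ-1. Cerebellar neuron markers summed to 1324 cpm in DJ-1+/+ replicate 1 and to 477 to 683 in the others, with Gabra6 and Pcp2 at 0 in some, and 3 of the 8 were past the threshold, all lower without DJ-1. Among all genes tested Park7 alone was past the adjusted threshold. The median log2 fold changes of the choroid plexus, dopaminergic and cerebellar lists were -1.86, 0.27 and -0.62. The part of these differences in the levels of Slc1a1, Gls2, Glud1 and Slc38a2 was not tested. With DJ-1+/+ replicates 1 and 4 both left out, a choice made after the data were seen, the log2 fold change was -0.11 for Slc1a1, -0.10 for Gls2, 0.085 for Glud1 and -0.11 for Slc38a2, from 2 DJ-1+/+ mice. In that fit it was 0.35 for Slc38a3 and 0.0093 for Got2.

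DJ-1+/+ replicate 2, the lowest mouse for Got1 and Slc38a3, was also lowest for the astrocyte, neuron, oligodendrocyte, endothelial and choroid plexus lists. Its sums were 994 cpm for astrocytes (1029 to 1126 in the other mice), 1991 cpm for oligodendrocytes (2176 to 2635) and 2195 cpm for neurons (2198 to 2365). The part of these in its Got1 and Slc38a3 levels was not tested. Astrocyte markers, which accompany Glul and Slc38a3, summed to 994 to 1102 cpm with DJ-1 and 1029 to 1126 cpm without, and neuron markers to 2195 to 2365 and 2198 to 2355 cpm. Neither astrocyte nor neuron sums separated the genotypes. Of the 8 neuron markers 1 was past the unadjusted threshold of edgeR, higher without DJ-1, and of the 8 astrocyte markers 0. Xist, expressed from the inactive X chromosome, had 0 to 2 counts in 3 libraries (DJ-1-/- replicate 5 and, of the other genotype, replicates 1 and 4) and 146 to 193 counts in the other mice. Read as a marker of sex, Xist was thus unevenly spread over the genotypes. DJ-1+/+ replicates 1 and 4 were also the mice with the highest cerebellar and choroid plexus sums respectively. With Xist as a covariate the log2 fold change of Slc1a1 was -0.15.

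**Figure D3:**
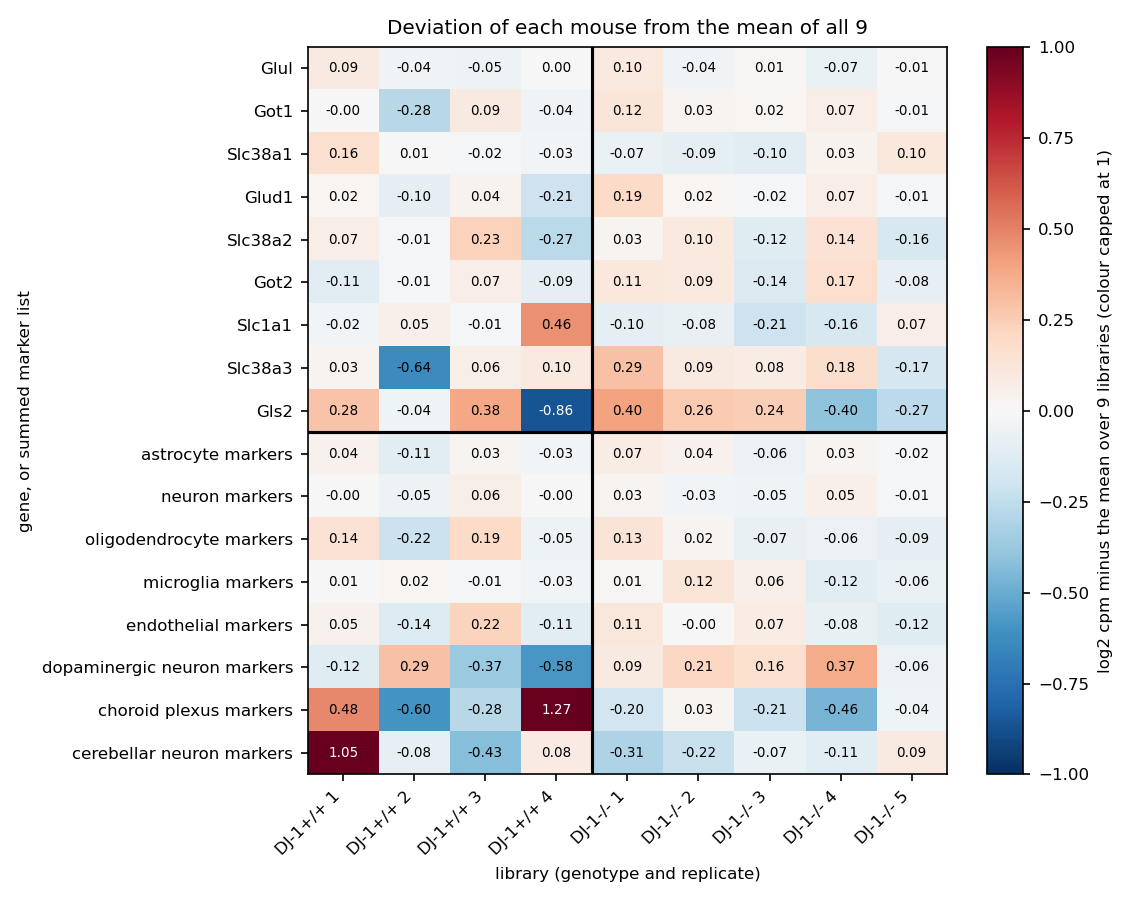
Deviation of each mouse from the mean of the 9 libraries, as log2 cpm, for the 9 genes (above the line) and for the summed cpm of each marker list (below). Red is above and blue below the mean, colour is capped at 1, and the vertical line parts DJ-1+/+ from DJ-1-/- mice. The column of DJ-1+/+ replicate 4 holds -0.86 for Gls2, 0.46 for Slc1a1 and 1.27 for the choroid plexus list.

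Ratios within a library compare partners of a reaction without reference to library size. Glul exceeded Gls2 in 9 of 9 mice, 8.54-fold on average in DJ-1+/+ and 7.96-fold in DJ-1-/- mice. Cytosolic Got1 exceeded mitochondrial Got2 in 9 of 9 mice, by 1.33-fold and 1.37-fold. The log2 ratio of Got1 to Got2 was between 0.17 and 0.54 in DJ-1+/+ and between 0.33 and 0.60 in DJ-1-/- mice. Glud1 and Got2 were nearly equal, with mean ratios of 1.06 and 1.10.

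Differences of these log2 ratios, DJ-1-/- minus DJ-1+/+, were small. They came to -0.10 for Glul to Gls2, 0.04 for Got1 to Got2 and 0.05 for Glud1 to Got2. The largest in size was that of Slc38a3 to Slc38a1, a release route of astrocytes over an uptake route found in neurons among other cells. This log2 ratio averaged -2.10 ± 0.35 (SD, n = 4) in DJ-1+/+ and -1.84 ± 0.23 (SD, n = 5) in DJ-1-/- mice. The difference was 0.26 (exact permutation test, two-sided p = 0.254). The ratios had p-values from 0.254 to 0.746 in the same exact permutation test, and 0.746 each after Benjamini-Hochberg adjustment over the 5 ratios tested. When DJ-1-/- replicate 5 was left out, the difference for Slc38a3 to Slc38a1 was 0.35 (exact permutation p = 0.0286, not adjusted, the smallest that 4 against 4 allow).

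**Figure D4:**
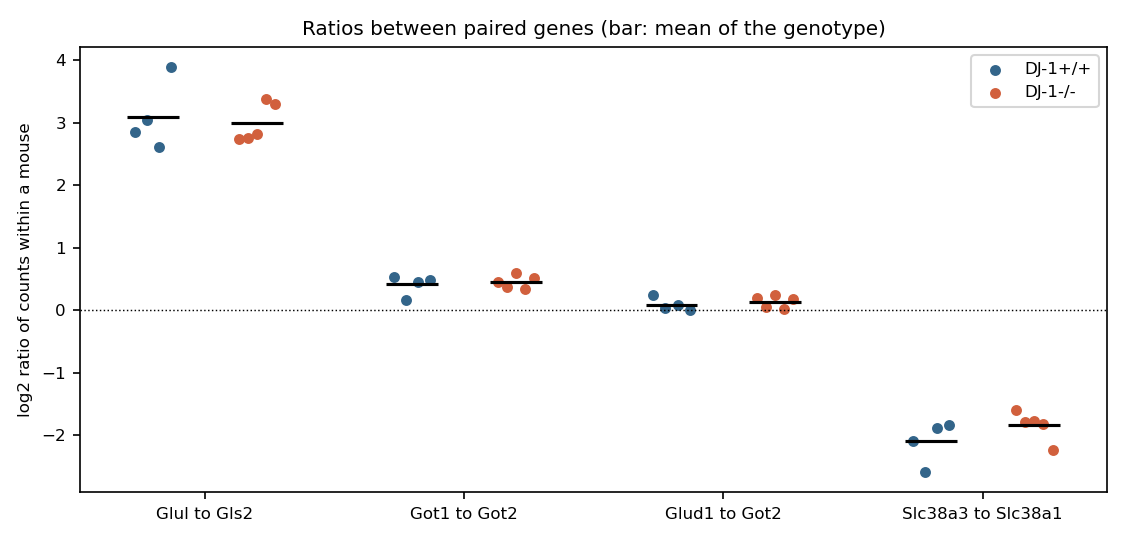
Log2 ratio of the counts of paired genes within each mouse, for 4 pairs. Points are mice (blue, DJ-1+/+, n = 4, and orange, DJ-1-/-, n = 5), bars are the genotype means and the dotted line marks equal counts. The genotypes overlap in each pair, and DJ-1+/+ replicate 4 has the highest Glul to Gls2 ratio, at 3.88.

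The other genes of glutamine and glutamate metabolism were taken as a list of 53, of which 52 passed the filter on low counts and Slc6a14 had no count. Without DJ-1, 29 of these had a higher and 23 a lower estimate. Of all 18127 genes tested, 9386 had a higher and 8741 a lower one. The median log2 fold change of the 52 was 0.01, equal to that of all genes tested at this precision. Past the unadjusted 0.05 threshold of edgeR was 1 of the 52, against the 2.82% of all genes, and past the adjusted one 0. In 2 of the 52 the cpm of the genotypes did not overlap, where 1.25% of all genes tested had no overlap.

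The glutamine-using enzymes numbered 10, with 6 higher and 4 lower and a median log2 fold change of 0.04. Pfas, which uses glutamine in purine synthesis, was the gene past the unadjusted threshold. It was at 35.6, 35.2, 37.2 and 29.3 cpm in DJ-1+/+ and at 46.0, 41.0, 46.4, 40.3 and 42.9 cpm in DJ-1-/- mice, so that all DJ-1-/- mice were above all DJ-1+/+ mice. Without overlap its exact permutation p is 0.0159 by construction, the smallest that the test allows. For Pfas the log2 fold change was 0.33 (SE 0.15), with an unadjusted p of 0.0420 and an adjusted p = 1 from edgeR. The unadjusted call was lost in 13 of 19 alternatives, among them DESeq2 and the fit without DJ-1+/+ replicate 4, while the log2 fold change in those 13 stayed between 0.26 and 0.35.

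The group of transaminases and of enzymes of glutamate, proline and GABA held 16 genes, 10 higher and 6 lower. The median log2 fold change of the 16 was 0.02. Abat, GABA transaminase, had both the highest mean level and the smallest p of the group, at 175 ± 18.5 cpm with DJ-1 (SD, n = 4) and 192 ± 11.5 cpm without (SD, n = 5), a log2 fold change of 0.14 (SE 0.08, exact permutation p = 0.127). As each mouse was left out it ran from 0.078 without DJ-1+/+ replicate 2 to 0.20 without DJ-1+/+ replicate 1, and only the latter fit was past the unadjusted threshold of edgeR.

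Of 19 tested transporters of the plasma membrane, 7 were higher and 12 lower, with a median log2 fold change of -0.03. Slc1a2, the main glutamate transporter of astrocytes, was at 366, 377, 355 and 378 cpm in DJ-1+/+ and at 373, 330, 347, 321 and 318 cpm in DJ-1-/- mice. Among the DJ-1-/- mice 4 of 5 were below all DJ-1+/+ mice, and DJ-1-/- replicate 1 lay among the latter. Its log2 fold change was -0.13 (SE 0.06), and -0.17 without DJ-1-/- replicate 1. The exact permutation test of its cpm gave p = 0.0476, unadjusted, while the adjusted p was 1 in edgeR's test over all genes. The unadjusted p from edgeR was 0.0627, and it was under 0.05 in 4 of 19 alternatives.

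Mitochondrial glutamate carriers and enzymes of the malate-aspartate shuttle numbered 7, of which 6 were higher and 1 lower. The median log2 fold change of the 7 was 0.03. Slc25a12, the aspartate-glutamate carrier of brain, was at 158 ± 11.6 cpm with DJ-1 (SD, n = 4) and 173 ± 10.9 cpm without (SD, n = 5), a log2 fold change of 0.13 (SE 0.08, exact permutation p = 0.0794). With each mouse left out it ran from 0.087 (without DJ-1-/- replicate 4) to 0.18 (without DJ-1+/+ replicate 1), and only the latter was past the unadjusted threshold of edgeR. Slc25a18, a glutamate carrier named here after its values were seen, was the other gene without overlap. Its cpm ran from 78.4 to 94.2 with DJ-1 and from 96.1 to 101 without (log2 fold change 0.16, SE 0.09). Its exact permutation p is then 0.0159 by construction, and edgeR gave an unadjusted p of 0.123 and an adjusted p = 1. Malate dehydrogenase of the cytosol, Mdh1, was the most abundant of the group at 288 cpm, with a log2 fold change of 0.015.

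The genes whose levels followed each member most closely over the 9 mice were found by Pearson's correlation of log2(cpm + 1) among 10769 genes with a mean of at least 20 counts. For 9 libraries and so many genes high values arise readily, and the libraries also differ in the marker lists above, so the values are a description. The closest were Smim17 for Gls2 (r = 0.98), Bsdc1 for Glul (0.92), Aldh1a1 for Glud1 (0.96), Tmem98 for Got1 (0.95) and Cplx2 for Got2 (0.96). For the transporters they were Ubn2 for Slc38a1 (0.97), Nat8l for Slc38a2 (0.98), Wbp4 for Slc38a3 (0.97) and Id4 for Slc1a1 (0.94). Next in order came Fam13a and Pou3f1 for Gls2, Snx18 and Epm2a for Glul, Mrpl17 and Ly6a for Glud1, 9230114K14Rik and Evi2a for Got1, and Decr1 and Cap1 for Got2. Those for the transporters were Kdm5a and Rad21 for Slc38a1, Synj2bp and Prmt3 for Slc38a2, and Hist3h2ba and Psmd9 for Slc38a3. None of the 9 genes was among the 3 genes closest to another of the 9.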

How the data were processed

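Total RNA from midbrain tissue of 4 DJ-1+/+ and 5 DJ-1-/- mice was made into 3′ mRNA-seq libraries with unique molecular identifiers (UMIs). The authors deposited raw UMI counts per Ensembl gene and library, without normalization and listing only genes with a count. The submitters' processing notes name fastp 0.20.0, STAR 2.7.3a, Subread featureCounts 2.0.0, UMI-tools 1.0.0 and GRCm38. The annotation release, the strand setting and the treatment of reads with several positions are not given in the sources used here, so counts of overlapping genes could include each other's reads. Groups and replicate numbers came from the sample labels.

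Counts were joined by identifier, with 0 for a gene not listed, and 26576 of 26602 genes were named from GENCODE M21. Genes that reached 10 counts in all libraries together were tested with edgeR 4.0.16 in R 4.3.3 (TMM, glmQLFit and glmQLFTest with defaults, genotype as the only term, Benjamini-Hochberg adjustment over 18127 genes). The SE is the log2 fold change divided by the square root of F. Single cpm values and ratios (0.5 added to each count) were compared over the 126 ways to assign genotypes by a two-sided exact permutation test (scipy 1.17.1). The variance of counts relative to that of counting error is a Pearson dispersion index within genotypes. P-values set the genotype difference against the spread between these mice, and edgeR's estimate of that spread also draws on the other genes.

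The members, gene lists and tests were chosen with earlier results of these data known. Named genes are the 9 members, Park7, in each wider group those with an unadjusted p under 0.05 or else the smallest p, and the gene of highest mean cpm, the 3 genes most like each member, and overlapping genes and pseudogenes. A few genes under this rule, and 1 of the 5 ratios tested, are not reported here. Alternatives were edgeR's likelihood ratio test and DESeq2 1.42.0, scaling by RLE or by library totals, other filters, thinned counts, Xist or a replicate block as a term, and leaving out each library in turn. The fitting code was tested on simulated data. Promoters are from RefSeq (GRCm38.p6).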

Additional observations from a re-analysis of the deposited data

Results flagged for a closer look

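Of 44 groups of 4 or 5 libraries examined, 3 had a library standing apart from the rest of its genotype, where chance gives about 1 in 20, or 2.2. Slc38a1 was at 239 cpm in DJ-1+/+ replicate 1 and at 210 to 215 cpm in the other DJ-1+/+ mice. Slc38a3 had 35.2 cpm in DJ-1+/+ replicate 2, against 55.8 to 58.7 cpm in the rest. Slc1a1 reached 116 cpm in DJ-1+/+ replicate 4, with 83.1 to 87.5 cpm in the other 3, beside the highest sum of choroid plexus markers (981 cpm), whose part in this value was not tested.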

How the results depend on the processing

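Over 19 alternatives none of the 9 genes had an adjusted p under 0.05. The number with an unadjusted p under 0.05 was 0 in 15 of them and 1 (Slc1a1) with a replicate block, and it ran from 0 to 1 as each library was left out, with 1 without DJ-1+/+ replicate 1 or 3 or DJ-1-/- replicate 5. In the wider pathway that number was 2 with RLE size factors, with at least 90 counts and with DJ-1+/+ replicates 1 and 4 both left out, 0 with DESeq2, no filter on low counts, Xist as a covariate or thinned counts, and 0 to 2 as each library was left out: 0 without DJ-1+/+ replicate 4 or DJ-1-/- replicate 3, 2 without DJ-1+/+ replicate 1 or DJ-1-/- replicate 4. Over all genes it was 235 with DESeq2, 802 without a filter and 338 without DJ-1-/- replicate 2, against 511.

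Directions near 0 turned. The log2 fold change of Gls2 was -0.033 with Xist as a covariate and -0.10 without DJ-1+/+ replicates 1 and 4. For Glul it was -0.0099 with RLE size factors, -0.0098 with DESeq2, -0.0080 with at least 90 counts, -0.0031 with a replicate block and -0.012 with thinned counts, and for Slc38a2 0.022 with a replicate block. Thinned counts gave differences of -1.07 cpm for Glul and 0.238 cpm for Slc38a2. With each library left out the log2 fold change ran from -0.14 to 0.22 for Gls2 (lowest without DJ-1+/+ replicate 4), -0.026 to 0.032 for Glul and -0.096 to 0.066 for Slc38a2, and the cpm difference from -4.36 to 5.95, -5.62 to 7.39 and -11.8 to 7.53. The difference in log2 ratio ran from -0.26 to 0.16 for Glul to Gls2 (0.16 without DJ-1+/+ replicate 4), -0.044 to 0.080 for Got1 to Got2 (-0.044 without DJ-1+/+ replicate 2) and 0.093 to 0.35 for Slc38a3 to Slc38a1. The cause of these turns was not tested.

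Same-numbered mice did not consistently deviate together (correlations of 0.29, 0.0553, -0.116 and -0.198 over 10770 genes). No same-numbered pair was each other's best match in both directions, and the labels give no pairing. The replicate block moved the log2 fold change of Slc1a1 to -0.27, past the unadjusted threshold of edgeR. Depth sets a floor on precision: counting error alone gives a coefficient of variation from 5.57% for Glul to 15.7% for Gls2, whose observed 26.3% lay above it.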
